A study of Mus musculus with 8 samples.

Results

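Of the 152834 HMGA2 peaks called in wild-type mouse embryonic fibroblasts, 3890 overlapped a γ-H2AX peak, by 1 bp or more, and no ATM peak. They made up 2.55% of the HMGA2 list (95% Wilson interval 2.47 to 2.63) and are called here the γ-H2AX-sharing HMGA2 peaks. They were set against the 145248 HMGA2 peaks that touched neither other list, called here the lone HMGA2 peaks. A further 3512 HMGA2 peaks (2.3% of the list) shared ATM alone, and 184 shared both. Counting those 184, 4074 HMGA2 peaks (2.67%) touched a γ-H2AX peak. Because the members were picked by where peaks overlap, that overlap is a description here and carries no test.

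All 3 peak lists came from Hmga2 wild-type fibroblasts of C57BL/6 embryos at stage E15.5, cultured to passages 2 to 4, by chromatin immunoprecipitation and sequencing (ChIP-seq). The series holds 8 libraries, 1 for each of HMGA2, γ-H2AX, ATM and input DNA in Hmga2 wild-type and in Hmga2 knockout cells. The knockout and input libraries were not analysed here, and the number of embryos behind a library is not given in the sources used here. The series title asks about the part of γ-H2AX in transcription mediated by high mobility group proteins. With 1 library per antibody there is no replicate error for any value. Intervals below cover counting error only and treat peaks as independent, which neighbouring peaks are not.

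HMGA2 is a non-histone chromatin protein that grips the minor groove of A/T-rich DNA through its AT-hooks, and it is made mostly in embryonic and other growing cells. γ-H2AX is the histone variant H2AX phosphorylated on the serine near its C terminus. It marks chromatin around DNA breaks and is also found at genes that are being switched on. ATM is a kinase that phosphorylates H2AX after DNA damage.

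Few peaks of either class reached a promoter, with the larger share among the γ-H2AX-sharing ones. On chromosomes that the promoter table covers, 18 of 3754 γ-H2AX-sharing peaks touched a window around an annotated start site. The window ran from 250 bases before the site to 50 after it, and 413 of 140141 lone HMGA2 peaks touched one. The upstream bases of 3 such start sites are shown because HMGA2 and γ-H2AX peaks overlapped inside them, and because Igf1 is a gene that the study itself looked at and Ier3 an immediate early gene on a list examined here. They come from RefSeq on GRCm38.p6, all on the plus strand, and run 5′ to 3′ up to the base before the start site. Capitals mark the bases covered by both peaks. Ipo7 encodes a nuclear import receptor (chr7:110018065-110018314), Igf1 encodes insulin-like growth factor (chr10:87860861-87861110, at a start site that lies inside the annotated gene and under the noncoding gene Igf1os), and Ier3 encodes a stress-induced survival protein (chr17:35821463-35821712).
Ipo7: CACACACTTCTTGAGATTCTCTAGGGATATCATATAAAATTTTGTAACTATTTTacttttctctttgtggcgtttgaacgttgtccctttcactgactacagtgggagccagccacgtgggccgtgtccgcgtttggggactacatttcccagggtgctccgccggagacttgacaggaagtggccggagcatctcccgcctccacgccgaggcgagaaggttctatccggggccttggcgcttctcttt
Igf1: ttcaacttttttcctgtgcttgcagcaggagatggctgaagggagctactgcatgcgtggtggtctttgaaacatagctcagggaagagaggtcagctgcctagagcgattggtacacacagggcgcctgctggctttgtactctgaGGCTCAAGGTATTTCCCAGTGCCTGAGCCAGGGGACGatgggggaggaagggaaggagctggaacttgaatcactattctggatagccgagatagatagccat
Ier3: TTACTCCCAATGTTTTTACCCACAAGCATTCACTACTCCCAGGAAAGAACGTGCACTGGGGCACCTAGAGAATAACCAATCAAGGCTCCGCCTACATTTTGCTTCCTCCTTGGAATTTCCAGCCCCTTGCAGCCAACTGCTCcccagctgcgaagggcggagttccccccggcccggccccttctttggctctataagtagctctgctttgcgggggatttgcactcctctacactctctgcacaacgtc
The bases under both peaks lay at -250 to -197 from the start site for Ipo7, at -103 to -67 for Igf1 and at -250 to -109 for Ier3. The Ipo7 stretch was 72.2% A or T, against 47.2% over its whole 250 bases, and held an unbroken A/T run of 12 bases. The Ier3 stretch was 50.7% A or T, against 45.6% over the whole. The Igf1 stretch was poorer in A and T than its surroundings, at 37.8% against 47.2%. The letters ATATT, searched on both strands, were in none of these 3 upstream regions and in 23.3% of all 32851 upstream regions of that length. A further region with at least 30 bases under both peaks, before a start site of Cdon and not printed, held the letters in 1 place, and its shared stretch was 54.1% A or T, against 57.2% over the whole. Among peaks with at least 50 bases inside a promoter window, the median A/T content of those bases was 59.1% for 12 γ-H2AX-sharing peaks (range 38.4% to 74.0%) and 57.4% for 313 lone peaks. Over all whole promoter windows the median was 47.3%. Both medians were thus above that of the promoter windows, with position inside the window not matched, while the values of the γ-H2AX-sharing peaks spread across the median of the lone ones.

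The overlaps themselves were narrow intervals near the calling threshold. Each peak carries the authors' score, -10 times the log10 of its p, and the lists begin at a score of 20. The γ-H2AX-sharing peaks had a median HMGA2 score of 23.9 and a highest score of 92.0, against a median of 23.8 and a highest score of 346.4 for the lone peaks. A score of 30 or more was reached by 525 γ-H2AX-sharing peaks, or 13.5% (12.5 to 14.6), and by 11.5% (11.3 to 11.6) of the lone peaks. The difference was 2.02 percentage points (0.966 to 3.14). A score of 50 or more was reached by 41 (1.05%) and by 755 (0.520%). The HMGA2 peaks sharing ATM alone had shares similar to the γ-H2AX-sharing peaks, 13.4% (12.3 to 14.6) at 30 or more and 1.22% at 50 or more. The rule favours wide peaks, and width moved with the difference from lone peaks. Of the narrowest 25% of HMGA2 peaks 2.29 in 100 were γ-H2AX-sharing, against 3.03 in 100 of the widest 25%. Within width groups the difference was 3.38 points (0.850 to 6.06) among the widest peaks, and its interval included 0 in each of the other 3 groups. With every peak cut to 1 fixed width around its midpoint the difference was 1.12 points (0.0800 to 2.23).

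The 3890 peaks met 3884 γ-H2AX peaks in 3912 pairs, and 22 of them met more than 1. The pairs shared a median of 94 bp, with a middle range of 48 to 134 bp and extremes of 1 and 1156 bp. At least 50% of the shorter peak was shared in 58.4% of pairs, and 387 pairs (9.89%) shared fewer than 20 bp. The γ-H2AX partner had a median score of 23.9, against 23.6 for the whole γ-H2AX list. A strong HMGA2 peak did not tend to have a strong γ-H2AX partner: Spearman's rho between the scores was 0.026 over the pairs, which share libraries and a common floor of 20. Both scores were under 30 in 76.1% of pairs and 30 or more in 72 pairs (1.84%).

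Counts changed little across the edge of the rule. There were 404 members sharing 1 to 20 bp and 392 sharing 21 to 40 bp, while 422 lone peaks ended 0 to 19 bp short of a γ-H2AX peak and 405 ended 20 to 39 bp short. Just inside the rule, the peak at chr1:14121158-14121344 shared 1 bp and had scores of 23.4 for HMGA2 and 22.3 for γ-H2AX. Just outside it, the peak at chr1:5040345-5040513, with an HMGA2 score of 20.9, abutted a γ-H2AX peak with 0 bp between them. On the ATM side, 60 members had an ATM peak within 100 bp of them.

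Over the whole HMGA2 and γ-H2AX lists, pairs of midpoints were more frequent at short distance. There were 2642 pairs per 100 bp of distance within 50 bp, against 1691 at 5 to 10 kb, a ratio of 1.56. The ratio was 1.27 at 100 to 150 bp, 1.17 at 200 to 300 bp, 1.10 at 500 to 1000 bp and 1.04 at 1 to 2 kb. HMGA2 and ATM peaks gave 2422 pairs per 100 bp within 50 bp and 1551 at 5 to 10 kb, a ratio of 1.56 as well. For ATM the ratio was 1.27 at 100 to 150 bp, 1.10 at 200 to 300 bp, 1.05 at 500 to 1000 bp and 1.01 at 1 to 2 kb. The ratios of the lists thus lay close together up to 150 bp, and those for ATM were lower in each bin from there to 5 kb. Within 50 bp the ratio for γ-H2AX was 1.55 within genes and 1.57 outside them, and for ATM 1.43 within genes and 1.69 outside them. No test of these differences was made. Whether background shared by the libraries takes part in the rise toward short distance was not tested.

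**Figure D1:**
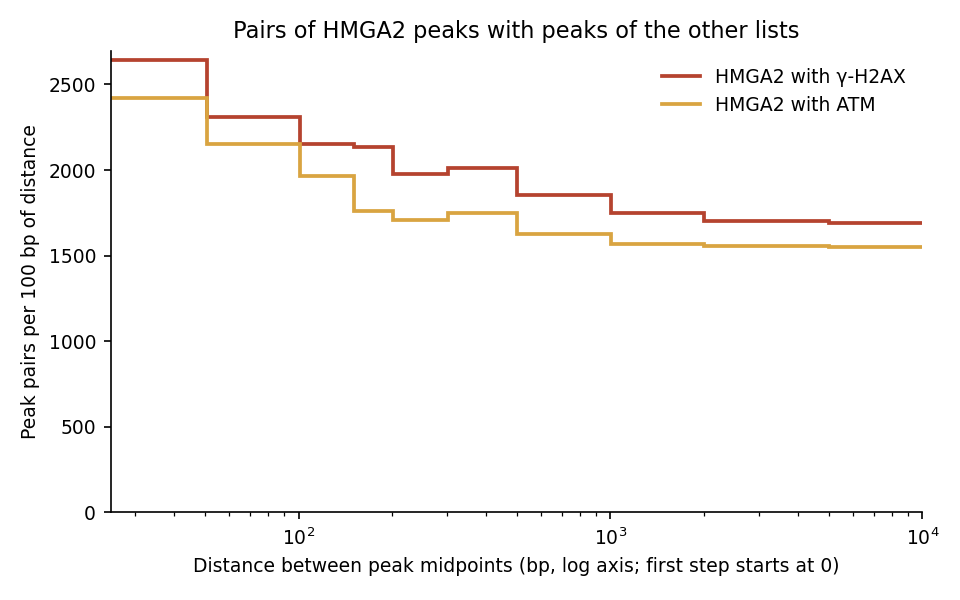
Pairs of HMGA2 peaks with γ-H2AX peaks (red) and with ATM peaks (yellow) per 100 bp of distance between midpoints, on a log distance axis in bp, for all peaks of each list. Both lines are highest within 50 bp (2642 and 2422 pairs per 100 bp) and level off at a few kb (1691 and 1551 at 5 to 10 kb).

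The members with the highest HMGA2 scores were mostly apart from those with the highest γ-H2AX scores. The highest HMGA2 score, 92.0, belonged to chrX:123056239-123056614, 47.1 kb from the claudin family gene Cldn34c1, with a γ-H2AX score of 25.01. Next came a pair of peaks beside the zinc finger gene Zfp985, chr4:147585132-147585729 and chr4:147585805-147586787, with HMGA2 scores of 83.3 and 82.1 and γ-H2AX scores of 22.4 and 33.1. This gene belongs to a family of near-identical copies, so the placing of its reads is uncertain. A peak at chr3:23583942-23584078 had 77.1 for HMGA2 and 47.5 for γ-H2AX, and an ATM peak lay 142 bp from it. These 4 thus combined HMGA2 scores above 77 with γ-H2AX scores between 22.4 and 47.5.

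By γ-H2AX score, the first member was chr2:98666226-98667457, with 201.0 for γ-H2AX and 41.6 for HMGA2. An ATM peak lay 922 bp from it. Whether reads can be placed uniquely here was not examined. The others scored between 57.3 and 72.0 for γ-H2AX and between 20.8 and 38.0 for HMGA2. Among them was a peak within Lamb1, which encodes a laminin chain of basement membranes (chr12:31293311-31293512), with 57.3 for γ-H2AX and 21.3 for HMGA2. Picked after its values were seen, a peak 1.90 kb from Cd44, the hyaluronan receptor, was among those high for both, with 47.6 for γ-H2AX and 42.5 for HMGA2 (chr2:102903407-102903735).

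The γ-H2AX-sharing peaks differed from the lone HMGA2 peaks in their place on the gene map. The rule draws them from places where γ-H2AX peaks lie, so their position also carries that of the γ-H2AX list. Midpoints of γ-H2AX-sharing peaks lay within an annotated gene in 54.8% (2132 peaks, 53.2 to 56.4), against 47.6% of lone peaks (69070 peaks). The difference was 7.25 points (5.67 to 8.83). Peaks over 50 kb from any gene were 13.3% of the γ-H2AX-sharing and 18.6% of the lone peaks, a difference of -5.30 points (-6.35 to -4.18). Most of the difference lay in protein-coding genes, which held 47.2% of the γ-H2AX-sharing and 40.2% of the lone midpoints. Genes for long noncoding RNA held 8.84% and 7.72%, and pseudogenes held 0.951% and 0.929%, where the interval of the difference (-0.243 to 0.383 points) included 0.

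The HMGA2 peaks that shared ATM alone resembled the lone peaks in their share within genes. Their share over 50 kb from any gene, 16.1% (14.9 to 17.3), lay between those of the γ-H2AX-sharing and the lone peaks. The share within genes was 7.43 points (5.15 to 9.69) higher in the γ-H2AX-sharing HMGA2 peaks than in those sharing ATM alone, of which 47.4% lay within a gene. Against the 117725 γ-H2AX peaks without HMGA2 or ATM, of which 54.0% lay within a gene, the difference was 0.765 points (-0.828 to 2.35). In their share within genes the members thus stood close to the γ-H2AX list at large. That interval covers counting error only, with peaks of 1 library per antibody treated as independent. The shift away from lone peaks held across HMGA2 scores, at 7.09 points (5.07 to 9.10) for scores of 20 to 25 and 6.38 (3.20 to 9.54) for 25 to 30. It was 9.34 (4.33 to 14.2) for 30 to 40 and 10.5 (1.75 to 18.8) for 40 and over, and all these intervals overlapped.

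At gene ends and start sites the γ-H2AX-sharing peaks also stood above the lone peaks, and the peaks sharing ATM alone lay between them. Within 1 kb of either end of a gene lay 6.79% of γ-H2AX-sharing peaks (264 peaks, 6.04 to 7.62) and 5.00% of lone peaks (7263 peaks), a difference of 1.79 points (1.03 to 2.63). The HMGA2 peaks sharing ATM alone had 5.81%, and the interval of the difference from them (0.978 points, -0.134 to 2.08) included 0. The γ-H2AX peaks without HMGA2 or ATM had 7.22%. In a setting added after the data were seen, only 1 peak was kept from each run of peaks within 10 kb. Runs were formed separately among the γ-H2AX-sharing and among the lone peaks, and the difference was 1.06 points (0.289 to 1.92). The classes were not thinned alike. Another member lay within 10 kb of 6.86% of members, while 69.9% of lone peaks had another HMGA2 peak 1 to 10 kb away. Within 1 kb of an annotated start site lay 3.01% of γ-H2AX-sharing peaks (113 of 3754 off chromosome 18) and 1.60% of lone peaks (2249 of 140141). The difference at start sites was 1.41 points (0.90 to 2.01). At start sites the HMGA2 peaks sharing ATM alone had 2.25%, and the γ-H2AX peaks without HMGA2 or ATM had 3.34%. Among peaks scoring 30 or more in all lists, which leaves 80 members, the gene-end difference was -0.0442 points (-3.10 to 7.12).

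**Figure D2:**
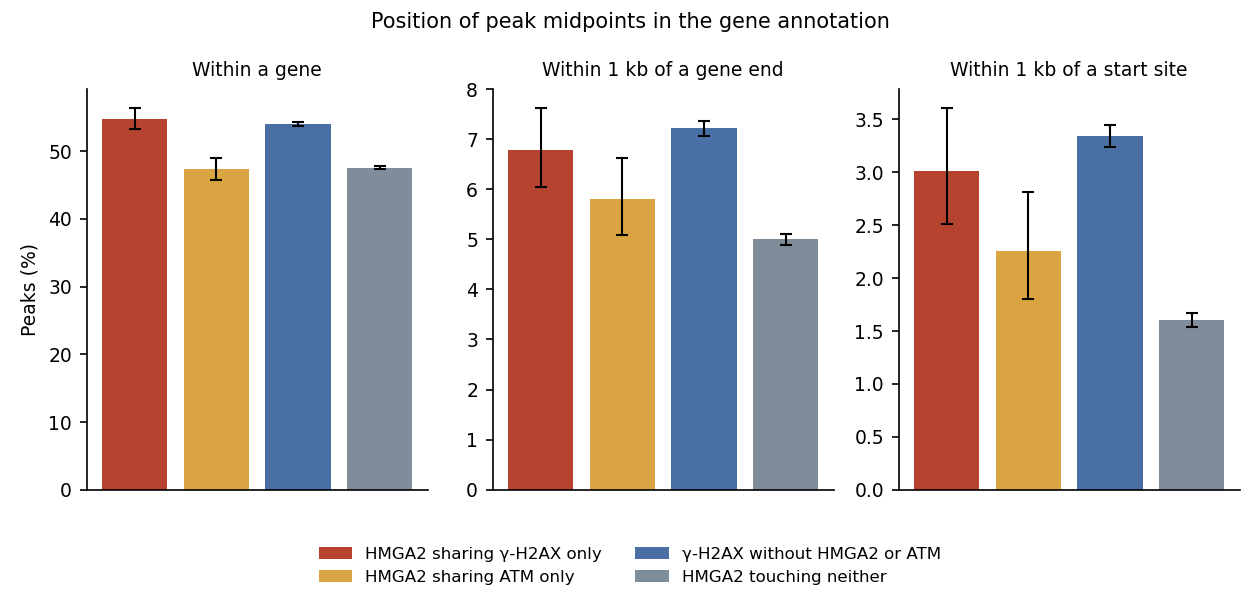
Share of peaks, in percent, whose midpoint lay within a gene, within 1 kb of a gene end and within 1 kb of a start site, with 95% Wilson intervals (counting error only), for γ-H2AX-sharing HMGA2 peaks (red), HMGA2 peaks sharing ATM alone (yellow), γ-H2AX peaks without HMGA2 or ATM (blue) and lone HMGA2 peaks (grey). In each panel the γ-H2AX-sharing peaks (54.8%, 6.79% and 3.01%) stand above the lone peaks (47.6%, 5.00% and 1.60%).

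Downstream of start sites the profiles parted most. In the first 1 kb after a start site lay 1.62% of the γ-H2AX-sharing peaks (61 peaks, 1.27 to 2.08) and 0.715% of the lone peaks (0.672 to 0.760). In the 1 kb before it lay 1.39% and 0.888%. The lone peaks were thinner just after the start site than from 1 to 2 kb after it, where they held 1.05% (1.00 to 1.11). The γ-H2AX-sharing peaks held 1.62% in both bins (1.27 to 2.08), so the intervals lay apart at 1 to 2 kb as well. In the remaining bins out to 5 kb the intervals overlapped, with 2 exceptions where the γ-H2AX-sharing peaks were also higher. These were 2 to 3 kb before the start site (1.28% and 0.779%) and 4 to 5 kb after it (1.33% and 0.861%). For protein-coding genes with a known strand, 1.78% of γ-H2AX-sharing and 0.945% of lone peaks lay within 1 kb of a 5′ end. At 3′ ends these shares were 1.52% and 1.10%, with differences of 0.839 points (0.459 to 1.32) at 5′ ends and 0.422 points (0.0726 to 0.868) at 3′ ends.

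**Figure D3:**
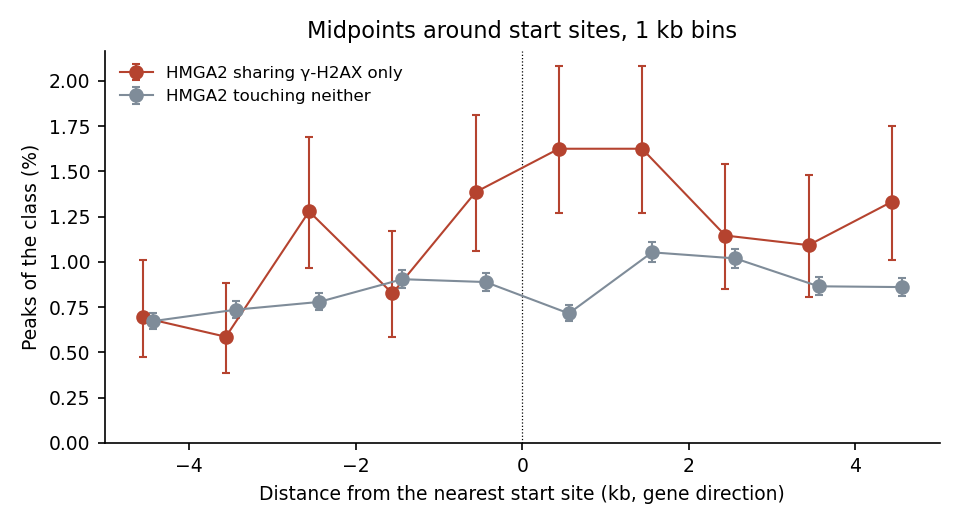
Share of the midpoints of each class, in percent, in 1 kb bins of distance from the nearest start site in the direction of the gene (kb), off chromosome 18, with 95% Wilson intervals, for γ-H2AX-sharing HMGA2 peaks (red) and lone HMGA2 peaks (grey). In the first bin after the start site the γ-H2AX-sharing peaks hold 1.62% and the lone peaks 0.715%.

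The difference varied with the length of the surrounding gene. Protein-coding genes under 20 kb long held 3.75% of γ-H2AX-sharing and 2.34% of lone midpoints, a ratio of 1.61. The ratio was 1.31 for genes of 20 to 100 kb (16.5% and 12.5%) and 1.18 for genes of 100 to 500 kb (20.4% and 17.3%). In genes of 500 kb or longer the order turned round, with 7.04% of γ-H2AX-sharing and 8.38% of lone midpoints, a difference of -1.34 points (-2.12 to -0.480). The γ-H2AX peaks without HMGA2 or ATM had 3.90% in the shortest and 6.78% in the longest group of genes, close to the γ-H2AX-sharing peaks. The HMGA2 peaks sharing ATM alone had 2.28% in the shortest group, close to the lone peaks. In the longest group they had 7.35%, also below the lone peaks.

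By chromosome, the γ-H2AX-sharing peaks were most frequent on chromosome 19, with 35.8 per 1000 HMGA2 peaks (29.8 to 42.9), and least frequent on X, with 17.99 (15.55 to 20.80). The other chromosomes apart from Y ran between 22.6 on chromosome 7 and 28.9 on chromosome 11, and their intervals all overlapped one another. The Y chromosome had 1 member among 120 HMGA2 peaks. The supply of γ-H2AX peaks was 983 per 1000 HMGA2 peaks on chromosome 19 and 564 on X, but the orders did not match throughout: chromosome 7 had 950 and chromosome 11 had 1008. Across 20 chromosomes Spearman's rho between the members and γ-H2AX peaks, each per 1000 HMGA2 peaks, was 0.459, a description of points that share their denominator. The share within genes was higher in the γ-H2AX-sharing than in the lone peaks on all 20 chromosomes other than Y, by 0.0104 points on chromosome 16 and 16.0 points on chromosome 4, with a mean of 6.41. The share at gene ends was higher on 16 of 20.

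**Figure D4:**
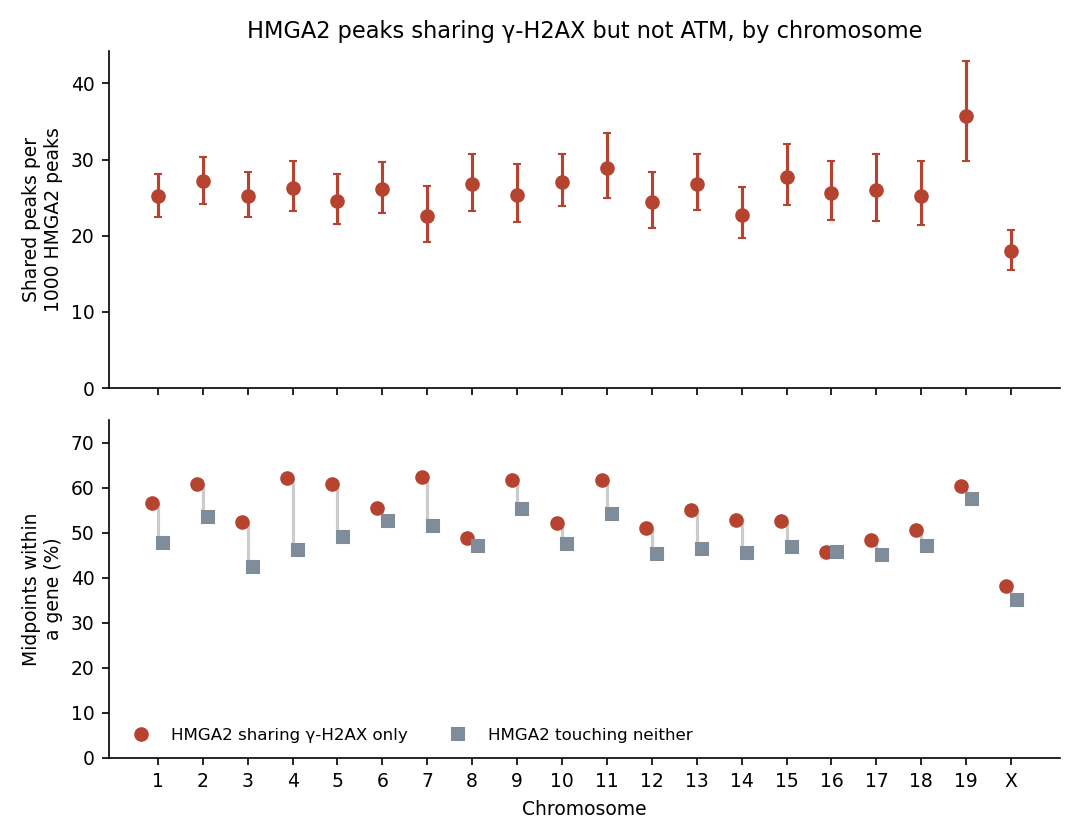
Top, γ-H2AX-sharing HMGA2 peaks per 1000 HMGA2 peaks by chromosome with 95% Wilson intervals. Bottom, share of midpoints within a gene, in percent, for γ-H2AX-sharing (red circles) and lone HMGA2 peaks (grey squares). Chromosome 19 is highest (35.8) and X lowest (17.99) in the top panel, and the red circles stand above the grey squares by 0.0104 to 16.0 points in the bottom one.

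A γ-H2AX-sharing peak lay within 1 kb of an end of 158 protein-coding genes, 0.722% of the 21887 annotated. Any HMGA2 peak did so for 3580 genes (16.4%), and an HMGA2 peak sharing ATM alone for 110 (0.503%). The 158 genes rested on 146 peaks, since neighbouring genes can share 1. Of the 125 genes with a known strand, 68 had the peak at the 5′ end (38 outside the gene and 30 inside) and 57 at the 3′ end (23 outside and 34 inside). In 24 of the 158 genes both scores were 25 or more, and in 1 of them, Oser1, both were 30 or more. The genes named next are the 20 with the highest lower score of HMGA2 and γ-H2AX.

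At 5′ ends, 9 of the named genes had their peak. Oser1, a gene responsive to oxidative stress, had a peak 929 bp outside its 5′ end (chr2:163420277-163420520) with scores of 30.1 for HMGA2 and 31.5 for γ-H2AX. Mcm6, a subunit of the helicase that unwinds DNA for replication, had one 832 bp inside (chr1:128358783-128358963) with 29.7 for HMGA2 and 39.7 for γ-H2AX. Cdk8, the kinase of the Mediator complex, had one 544 bp outside (chr5:146230164-146230338) with 30.7 and 25.5, and its peaks shared only 5 bp. The virus restriction factor Bst2 had one 581 bp inside with 28.5 and 25.5. Akr1a1, an aldehyde-reducing enzyme, had one 464 bp inside with 27.3 and 27.5. Tgds and 4930447C04Rik had peaks 399 and 487 bp outside, with lower scores of 26.1 and 25.5. A single peak at chr1:171344493-171344931, with 27.7 for HMGA2 and 26.2 for γ-H2AX, stood at the 5′ ends of both Pfdn2, a chaperone subunit, and its divergent neighbour Nit1.

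Another 9 of the named genes had their peak at the 3′ end. Dlx2, a homeodomain factor of forebrain and jaw, had a peak 320 bp inside its 3′ end (chr2:71543645-71543811) with 38.4 for HMGA2 and 29.8 for γ-H2AX. Klf4, a zinc finger factor of growth control and pluripotency, had one 812 bp inside (chr4:55527883-55528014) with 26.5 and 29.1, and its γ-H2AX peak lay wholly within the HMGA2 peak. H3f3a, which encodes histone H3.3, had scores of 27.5 and 39.2, and its copy H3f3c had 47.9 and 28.7. Their sequences are nearly alike, so reads could be placed at either, and both are uncertain. Senp2, which removes SUMO from proteins, had 34.6 and 25.7 at a peak 36 bp inside its end. Kif22, a kinesin of mitotic chromosomes, had 31.6 and 27.4, and Ddah1, which breaks down methylated arginine, had 28.8 and 26.1. The adaptor gene She had 28.0 and 28.7. Rps27, a ribosomal protein gene, shared its peak (25.8 and 29.2) with an end of Nup210l, whose strand is unknown. The remaining gene of the 20, Pcm1, which encodes a scaffold of centriolar satellites, had 36.7 and 28.1 at an end of unknown strand. In each of these sentences the HMGA2 score stands first.

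**Figure D5:**
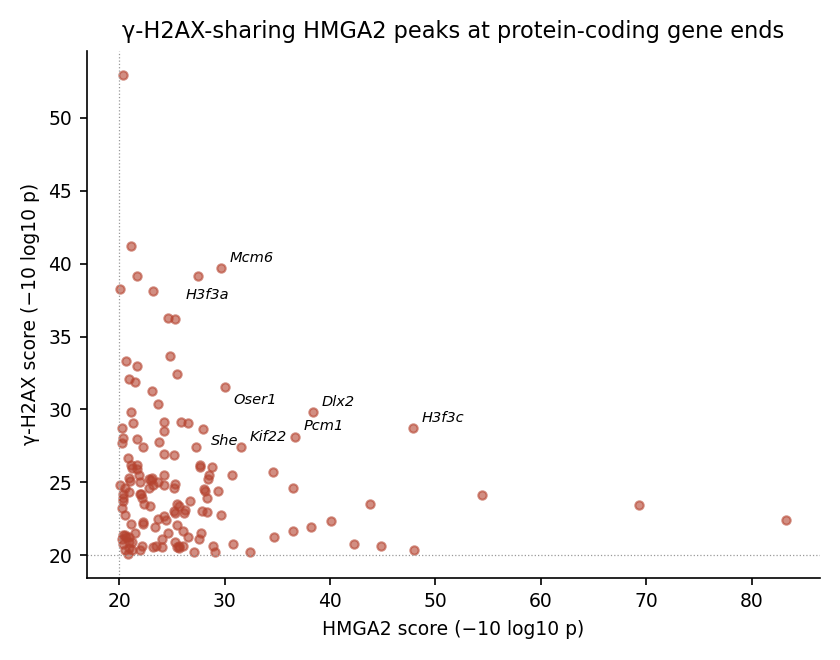
HMGA2 score against γ-H2AX score (both -10 log10 p, as given by the authors) for the γ-H2AX-sharing HMGA2 peaks behind the 158 protein-coding genes with one within 1 kb of an end, with dotted lines at the threshold of 20. Most points lie near the threshold on at least 1 axis, and a single gene, Oser1, has both scores at 30 or more.

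Within gene bodies, 1456 protein-coding genes (6.65%) held the midpoint of a γ-H2AX-sharing peak, 1168 of them 1, 208 of them 2, 55 of them 3 and 25 of them 4 or more. Their median length was 99.2 kb, against 41.7 kb for genes holding any HMGA2 peak. Long genes have more peaks to draw from, and the part of this in the contrast was not tested. Sugct had 7 among its 102 HMGA2 peaks over 837.3 kb, and the receptor phosphatase gene Ptprd had 7 among 212 over 2270.5 kb. Over the whole HMGA2 list the share was 2.55%. Among the 25 genes with 4 or more, which were picked by this count, the following had the highest shares, given as a description. Mrtfa, a co-activator of serum response factor that responds to actin, had 4 of 17 (23.5%). Sgms1, a sphingomyelin synthase, had 4 of 22, Glis3 had 4 of 24, Mcc 4 of 28, Nfib 4 of 29, Bcas3 4 of 30 and Bnc2 6 of 49.

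Another member lay within 10 kb of 267 members (6.86%), in 128 runs, of which 10 held 3 or more. No background for this share was computed. The longest run had 4 within Npas3, a neuronal transcription factor gene (chr12:53292595-53307890), with HMGA2 scores of 21.4 to 36.7 and γ-H2AX scores of 21.7 to 28.5. A run of 3 lay within the actin-binding gene Cald1, with HMGA2 scores of 25.3 to 29.4 and γ-H2AX scores of 24.9 to 26.5. Other runs of 3 lay within Mcc, Adamtsl1, Ipo11, Zfp990 and Gm49890, and nearest to Gm40042, Gm38767 and Gm10060. Zfp990, like Zfp985, is a zinc finger gene with near-identical relatives, so the placing of its reads is uncertain.

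Peaks of all 3 lists were more frequent near the γ-H2AX-sharing than near the lone peaks. Another γ-H2AX peak lay 1 to 10 kb from 66.8% of the γ-H2AX-sharing and 59.4% of the lone peaks, a difference of 7.41 points (5.90 to 8.90). Another HMGA2 peak did so for 73.3% and 69.9% (difference 3.38 points, 1.95 to 4.77), and an ATM peak for 61.1% and 59.0% (difference 2.06 points, 0.50 to 3.60). Although the rule bars contact with ATM, an ATM peak lay within 1 kb of 11.5% (446 peaks) of the γ-H2AX-sharing and 10.3% of the lone peaks. The median gap to the nearest ATM peak was 6471.5 bp and 6868 bp. The rule picks peaks by contact with the γ-H2AX list and so favours regions dense in γ-H2AX, so the margin for γ-H2AX is a description. The HMGA2 peaks sharing ATM alone had an ATM peak nearby in 60.9%, where the difference from the γ-H2AX-sharing peaks was 0.174 points (-2.05 to 2.40), and a γ-H2AX peak nearby in 62.1%. The part of this density in the other results was not tested.

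Of 4 genes that the study itself looked at, 3 held a γ-H2AX-sharing peak between their ends, against 6.65% of all protein-coding genes. These genes were chosen in the study itself, so they are not independent of these libraries, and the 3 are longer than most, at 78.8, 115.2 and 109.1 kb for Igf1, Hmga2 and Mtor. Igf1, the growth factor, had 1 of its 4 HMGA2 peaks in the class, at chr10:87860843-87861044, with 26.2 for HMGA2 and 27.7 for γ-H2AX over 37 shared bp. This is the overlap printed in capitals above, and the nearest ATM peak lay 2197 bp from it. Hmga2 itself had 1 of 14, at chr10:120462462-120462616, with 23.1 for HMGA2 and 27.4 for γ-H2AX over 133 shared bp. Mtor, the kinase that couples growth to nutrients, had 1 of 5, at chr4:148484600-148484772, with 20.4 and 21.5 over 43 shared bp, and an ATM peak lay 212 bp from it. Gata6, an endoderm and heart factor, held 0 HMGA2 peaks, 0 γ-H2AX peaks and 3 ATM peaks between its ends.

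The lists of pathways and cell types examined held 267 protein-coding genes, and their counts stood near the background. A γ-H2AX-sharing peak lay at an end of 3 of them (1.12%, against 0.722% of all) and inside 24 (8.99%, against 6.65%). The 3 at an end were Xrcc5, Klf4 and Ier3. Xrcc5, which encodes a Ku subunit that holds broken DNA ends, had a peak 575 bp inside its 5′ end (chr1:72307903-72308080) with 42.2 for HMGA2 and 20.8 for γ-H2AX. Ier3 had one 201 bp outside its 5′ end (chr17:35821419-35821604) with 27.9 and 23.0, over 186 shared bp.

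Insulin, IGF and mTOR signalling had 5 of 20 genes with a member inside, among them Igf1, Pik3ca, Igf2bp1 and Mtor. The HMGA2 scores of these 4 ran from 20.4 to 28.2 and their γ-H2AX scores from 21.5 to 27.7. Any HMGA2 peak lay inside 16 of the 20, against 10737 of 21887 protein-coding genes in all. The DNA damage list had 4 of 24, the repair factors Prkdc, Xrcc4, Wrn and Xrcc5, with Prkdc at 26.9 for HMGA2 and 26.9 for γ-H2AX. The fibroblast and matrix list had 3 of 20, Fbn1 (23.6 for HMGA2 and 32.1 for γ-H2AX), and, in the same order of scores, Col5a2 (29.1 and 22.6) and Col5a1 (21.3 and 24.6). The cell cycle list had 1 of 23, Cdk6, a kinase of the G1 phase, with 30.4 and 35.3. The high mobility group list had 2 of 19, Hmga2 and Tcf7l1, and the forkhead, T-box and Gata list had 3 of 27, Gata4, Foxp2 and Tbx15. The immediate early list had 1 of 18, Klf4, and the TGF-beta and BMP list 1 of 20, the receptor gene Bmpr2 (23.2 and 26.6). Lists of other cell types were touched as well: the neuronal list in 3 of 16 genes, Snap25, Syt1 and Stmn2, and the endothelial list in 1 of 13, Emcn, with 20.9 for HMGA2 and 49.0 for γ-H2AX. The p53 target, housekeeping, blood cell and epithelial lists had 0. Gene length differs between these lists, and its part in the counts was not tested.

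The authors also deposited regions they list as promoters with γ-H2AX in wild-type cells. Of 2220 such regions, 64 were touched by 65 γ-H2AX-sharing HMGA2 peaks, and 43 of these peaks lay within 1 kb of a protein-coding gene end. No lone HMGA2 peak touched any, and since these regions come from the γ-H2AX library that the rule uses, no comparison with lone peaks is made. Among those 43, by the lower of the 2 scores, the named genes Pfdn2 and Nit1, Tgds and 4930447C04Rik came first, followed by Nucb1, with 25.3 for HMGA2 and 36.2 for γ-H2AX. Of the peaks without such a gene end, 4 had a lower score above these, from 26.2 to 29.98, and the last of the 4 was the Igf1 peak. Picked here after their values were seen, Msx2, a homeodomain factor, had 28.3 and 24.0, Ipo7 had 28.1 and 24.4, and Klhl9, an adaptor of a ubiquitin ligase, had 43.8 and 23.5. Of the authors' promoters with ATM, 0 of 866 were touched by a γ-H2AX-sharing peak, where the rule uses the same library, and 28 HMGA2 peaks sharing ATM alone touched one.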

How the data were processed

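ChIP-seq peaks of HMGA2, γ-H2AX and ATM from Hmga2 wild-type fibroblasts were used, 1 library each. Per the labels, the authors called peaks with MACS14 without its model, at a p threshold of 0.01 and a shift size of 30 bp. Trimmomatic, Bowtie2, SAMtools, HOMER and mm10 are named in the submitters' processing notes, without versions. The control of the calls is not given in the sources used here. The score in column 5 of the deposited peak lists is the authors' -10 log10 p, which ranks peaks within a list and is not an amount of binding. The deposited promoter lists give only starts and ends (another kind of unit, with no measurement), and how they were chosen is not given in the sources used here. The histogram over all HMGA2 peaks and the plotting settings were not used, and no library depth was used.

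Overlap meant 1 shared bp or more, with the count checked against bedtools 2.31.1 and the code tested on simulated intervals (Python 3.11.15, numpy 2.4.6, pandas 2.3.3, scipy 1.17.1). Peaks were placed by their midpoints on 49943 RefSeq genes of GRCm38.p6, the assembly of mm10. Gene strand and 32851 start sites came from the RefSeq promoter table, which gave strand for 17492 of 21887 protein-coding genes and held no entry for chromosome 18. Exons and introns were not annotated. Intervals of shares are 95% Wilson and those of differences Newcombe. Genes at ends were named by the lower of their 2 scores (20 genes), members by each score (5 each), and list genes at an end up to 3 a list; some items these rules pick are not reported here. Members, lists and rules were chosen with earlier results of these data known. Start sites, score strata, chromosome means and single peaks per run were added after the data were seen.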

Additional observations from a re-analysis of the deposited data

How the results depend on the processing

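Differences are γ-H2AX-sharing minus lone HMGA2 peaks in percentage points. The share within genes stayed higher under all 14 alternatives (6.17 to 10.5), and its interval excluded 0 in 12 of the 13 that had one. The exception was scores of at least 30 in all lists, at 6.17 (-4.70 to 16.7). The difference was 9.34 (4.33 to 14.2) for HMGA2 scores of 30 to 40 and 10.5 (1.75 to 18.8) for 40 and over. With scores of at least 25 in all lists the members numbered 609, the share scoring 30 or more differed by 5.37, ATM nearby by 4.10, and 24 genes had a member at an end. With scores of at least 30 the members numbered 80, gene ends differed by -0.0442, ATM nearby by 7.71, γ-H2AX nearby by 9.67, HMGA2 nearby by 0.441, and 1 gene had a member at an end; the HMGA2 score itself could not be compared, since every peak left scored 30 or more. With 50% of the shorter peak shared there were 2283 members and 97 genes. Windows of 500 bp and 5 kb gave gene-end differences of 0.613 and 3.92 and 75 and 652 genes. From the narrowest width group up, the score difference was 1.14, -0.677, 0.665 and 3.38. A ring of 1 to 50 kb gave 0.418 for ATM, 0.961 for γ-H2AX and 0.269 for HMGA2. The causes of these moves were not tested. The interval for ATM nearby included 0 with 50% shared (1.87), and that for HMGA2 nearby did so at scores of 25 and 30 and in the wide ring.

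Each list rests on 1 library, so none was left out in turn. No paired analysis was possible because each antibody and genotype has 1 library and no test was made.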
